A study of Mus musculus with 8 samples.

Results

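The 9 genes named together as astroglial and Bergmann glia genes were followed across the cell types of the paraflocculus and flocculus (PF/F), the lateral lobules of the mouse cerebellum. The 9 genes, Slc1a2, Slc1a3, Aqp4, Gdf10, Hopx, Fabp7, Aldh1l1, Gfap and Ptprz1, were chosen by symbol among the 32285 features of the count tables, and all 9 were found. Their raw unique molecular identifiers (UMIs, each a counted RNA molecule) were summed over the nuclei of each annotated cell type in a library. The level of a gene is given as CPM, its counts scaled to 1000000 UMIs of the same summed nuclei.

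The study profiled single nuclei of the PF/F and of the petrous temporal bone (PTB), which surrounds it, from wild-type (WT) and Tbx1+/- mice at postnatal day 5.5 on the C57BL/6J background. Tbx1+/- mice lack 1 copy of the transcription factor gene Tbx1 in every cell, and the controls were WT littermates with both copies. Each library pooled 5 mice of one tissue and genotype, and each tissue and genotype had 2 libraries, made from 2 separate batches of animals. Mice of both sexes were used in the study and the makeup of each pool by sex is not given in the sources used here. The spread between 2 pooled libraries mixes animals, batch and technical error, so the p-values below measure only the spread between libraries.

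Astroglia clear glutamate and potassium from the space around synapses, supply metabolites and line vessels and the brain surface. In the cerebellum they include Bergmann glia, which keep the radial shape of their progenitors, hold their cell bodies beside the Purkinje cells and guide granule neurons on their way inward after birth. Slc1a2 and Slc1a3 encode the main glial glutamate transporters, Aqp4 a water channel of astrocytic endfeet, and Gfap the intermediate filament of astrocytes. Fabp7 encodes the brain lipid-binding protein of radial glia, Aldh1l1 a folate enzyme widely used as a pan-astrocyte marker, and Hopx a small homeodomain protein found in radial glia. Gdf10 encodes a secreted ligand of the transforming growth factor family that is known from Bergmann glia. Ptprz1 encodes a receptor phosphatase of glia and their progenitors whose ligands include pleiotrophin and tenascins.

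Promoter sequence is shown for 4 of the genes on which the results turn. Gdf10 and Gfap divide the astroglial nuclei below. Slc1a3 differs most between the nuclei so divided among the other genes with a window, and Fabp7 was found in every cell type. The windows are the 250 bases before the RefSeq gene start in the build GRCm38.p6, written 5′ to 3′ on the strand of the gene. Capitals mark matches on either strand to 1 of 5 motifs that were searched, the core promoter box TATAAA, the short nuclear factor I motif TTGGC, the RBPJ motif GTGGGAA, the STAT motif TTCNNNGAA and the SOX motif AACAAT.
Gdf10 (chr14:33923337-33923586, + strand): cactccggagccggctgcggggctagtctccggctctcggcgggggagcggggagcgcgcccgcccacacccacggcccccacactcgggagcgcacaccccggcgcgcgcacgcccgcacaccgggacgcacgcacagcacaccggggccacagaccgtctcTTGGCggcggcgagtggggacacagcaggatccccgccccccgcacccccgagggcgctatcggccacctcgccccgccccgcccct
Slc1a3 (chr15:8710808-8711057, - strand): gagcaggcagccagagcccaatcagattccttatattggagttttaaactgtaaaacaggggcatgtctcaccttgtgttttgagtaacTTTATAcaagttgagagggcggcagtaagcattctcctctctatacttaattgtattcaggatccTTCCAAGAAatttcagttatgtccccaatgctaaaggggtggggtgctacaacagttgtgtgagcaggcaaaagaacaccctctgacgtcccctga
Gfap (chr11:102897201-102897450, - strand): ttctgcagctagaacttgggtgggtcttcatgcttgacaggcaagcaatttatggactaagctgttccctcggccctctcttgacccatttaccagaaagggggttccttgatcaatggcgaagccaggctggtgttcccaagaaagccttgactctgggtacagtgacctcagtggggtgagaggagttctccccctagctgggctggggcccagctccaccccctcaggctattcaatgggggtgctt
Fabp7 (chr10:57784673-57784922, + strand): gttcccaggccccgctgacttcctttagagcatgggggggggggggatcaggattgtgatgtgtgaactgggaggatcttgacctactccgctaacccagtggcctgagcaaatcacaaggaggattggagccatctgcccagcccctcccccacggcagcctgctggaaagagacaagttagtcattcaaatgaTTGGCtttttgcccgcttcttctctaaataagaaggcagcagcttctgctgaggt

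The Gdf10 window was among the richest in G and C of all windows searched, at 78.8% and the 98.3rd percentile of 32851 windows, whose median was 52.4%. The Slc1a3 window held 44.8% (23.2nd percentile), and those of Gfap and Fabp7 held 55.6% and 54.8%. Gdf10 and Fabp7 each held 1 TTGGC, ending 83 and 51 bases before the start, a motif present in 41.5% of all windows. Slc1a3 held TATAAA on the opposite strand, 161 to 156 bases before the start, and TTCNNNGAA 96 to 88 bases before it, motifs found in 12.4% and 7.02% of all windows. Gfap held none of the 5 motifs. These are matches of letters only. The Gdf10 start coincided with the gene start in the GENCODE annotation, those of Fabp7 and Slc1a3 lay 42 and -43 bases from it, and that of Gfap lay 3712 bases inside the annotated gene.

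In the GRCm38 annotation Slc1a2 lies at chr2:102658659-102790784, Slc1a3 at chr15:8634124-8710764, Gdf10 at chr14:33923587-33937983 and Hopx at chr5:77086988-77115121. Fabp7 lies at chr10:57784881-57788450, Gfap at chr11:102887336-102900912, and Aldh1l1 (chr6:90486427-90600203) and Ptprz1 (chr6:22875502-23052916) share chromosome 6. All 9 are protein-coding. Introns were counted with exons and the strand setting of the counting is not given in the sources used here, so reads of annotated transcripts that overlap Slc1a2 (Gm13872), Hopx (Hopxos), Aldh1l1 (Gm15756) and Gfap (Gm26668) on the other strand, Slc1a3 (Gm37310) and Aldh1l1 on the same strand, and Aqp4 on the other strand, could not be told apart from those of the gene. Gdf10, Fabp7 and Ptprz1 had no such overlap.

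The 4 PF/F libraries held 48237 annotated nuclei with 37700625 to 52902902 UMIs per library and a median of 2610 to 3503 UMIs per nucleus. Any pair of them shared 50 to 85 cell barcodes, of which 30 to 60 were annotated in both. Astroglia made up 7152 nuclei (14.8%), with 2042 and 1233 nuclei in the WT libraries of batches 1 and 2 and 2017 and 1860 in the Tbx1+/- libraries, at a median of 2846 to 3591 UMIs. Tbx1 itself was near the limit of detection in the PF/F, with 4 to 13 UMIs per library. In the PTB it stood at 38.9 CPM in WT and 26.3 CPM in Tbx1+/- of batch 1, and at 39.4 CPM in WT and 35.7 CPM in Tbx1+/- of batch 2, lower in the mutant library of both batches. Of the choroid plexus markers in astroglia, Ttr stood at 54.5 and 60.0 CPM in WT and at 110 and 220 CPM in Tbx1+/-, higher in the mutant library of both batches, while Folr1 (1.58 to 5.56 CPM) and Kl (0 to 0.617 CPM) were near 0 in all 4. The summed erythroid markers, 191 and 175 CPM in WT and 201 and 269 CPM in Tbx1+/-, were also the higher in the mutant library of both batches. In batch 1, however, Hba-a1 (31.8 against 34.1 CPM) and Hbb-bt (20.2 against 22.2 CPM) were lower in the mutant library. The summed markers of the granule lineage ran from 574 to 758 CPM in astroglia. Those of oligodendrocytes ran from 85.0 to 112 CPM and those of immune cells from 161 to 195 CPM. In the immune sum P2ry12 was the largest, at a mean of 144 CPM against 40.2 CPM in differentiated granule neurons. Cx3cr1 (17.98 against 15.52 CPM), Csf1r (3.13 against 2.82 CPM) and C1qa (7.47 against 9.05 CPM) were near their levels in those neurons. In the granule sum Zic1 was the largest (454 CPM), before Rbfox3 (150 CPM), Neurod1 (57.2 CPM) and Gabra6 (0.302 CPM). The part of other cells in the results was not tested.

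The type labelled early rhombic lip cells, which comes second for several of the 9 genes below, also held the highest levels of the ependymal markers Foxj1 (103 ± 43.4 CPM), Tmem212 (435 ± 62.8 CPM) and Dnah12 (1808 ± 423 CPM) and of the choroid plexus markers Ttr and Folr1 (67.4 ± 12.1 CPM) of all 16 types. The other choroid plexus marker, Kl, stood in that type at 9.24 ± 7.61 CPM, under the 17.6 ± 5.17 CPM of meningeal cells, where it was highest. In astroglia the 3 ependymal markers summed to 5.14 to 6.41 CPM. Ttr in the early rhombic lip type stood at 1395 and 1343 CPM in WT and at 2757 and 4287 CPM in Tbx1+/-. The label is kept here as the name of that set of nuclei, which also carries markers of those other cells.

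In all, 7 of the 9 genes had their highest mean level in astroglia among the 16 annotated cell types. The exceptions were Slc1a2, highest in GABA interneuron progenitors, and Ptprz1, highest in oligodendrocytes. The annotation had been made from clusters of the same nuclei, so levels by cell type are a description and carry no test.

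Slc1a3 stood at 1854 and 2418 CPM in the WT astroglia of batches 1 and 2 and at 2562 and 2436 CPM in the Tbx1+/- astroglia, a mean of 2318 ± 316 CPM (SD, n = 4 libraries here and throughout). Meningeal cells followed with 1081 ± 198 CPM and GABA interneuron progenitors with 741 ± 110 CPM, whose ranges overlapped, and then early rhombic lip cells with 533 ± 72.5 CPM. Each astroglial library lay above the highest library of every other type. Its mean in astroglia was 97.8 times that in the cells labelled progenitors (23.7 ± 3.81 CPM), the type with the lowest mean.

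Slc1a2, the other transporter, was ordered differently. It stood at 384 and 427 CPM in WT astroglia and at 393 and 401 CPM in Tbx1+/- astroglia (mean 401 ± 18.7 CPM). GABA interneuron progenitors held 657 ± 44.6 CPM, and all 4 of their libraries (618 to 718 CPM) lay above all 4 of astroglia. Granule neuron progenitors came next with 187 ± 11.9 CPM, again without overlap, and early rhombic lip cells (112 ± 32.2 CPM) and oligodendrocytes (106 ± 6.97 CPM) could not be ordered. Purkinje cells were lowest at 33.1 ± 6.20 CPM. Meningeal cells, next to astroglia for Slc1a3, held 55.4 ± 8.93 CPM of Slc1a2.

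Aqp4 stood at 598 and 543 CPM in WT astroglia and at 659 and 537 CPM in Tbx1+/- astroglia (mean 584 ± 56.9 CPM). Early rhombic lip cells followed with 302 ± 93.3 CPM, below every astroglial library. All other types were at 83.1 ± 43.7 CPM (pericytes) or less.

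Gfap stood at 152 and 121 CPM in WT and at 128 and 131 CPM in Tbx1+/- astroglia (mean 133 ± 13.3 CPM), followed by 53.5 ± 24.6 CPM in early rhombic lip cells. The astroglial libraries lay above all libraries of every other type. No Gfap UMI was found in the 74 pericyte nuclei, which allows a level of up to 13.8 CPM, the level of 3 counts over the 4 libraries.

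Aldh1l1 stood at 207 and 266 CPM in WT and at 252 and 247 CPM in Tbx1+/- astroglia (mean 243 ± 25.1 CPM), well apart from the 46.2 ± 8.61 CPM of early rhombic lip cells and the 31.6 ± 5.79 CPM of GABA interneuron progenitors. Of all 9 genes it had the largest share of its UMIs in astroglia, 79.2%. The shares of Slc1a3, Gfap, Aqp4 and Gdf10 were 75.5%, 74.1%, 73.2% and 68.7%, in a cell type that held 15.3% of all annotated UMIs.

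Gdf10 stood at 113 and 125 CPM in WT and at 173 and 132 CPM in Tbx1+/- astroglia (mean 136 ± 26.1 CPM), with the Tbx1+/- library of batch 1 the highest. Early rhombic lip cells held 27.0 ± 12.1 CPM, and from there down the libraries of each type overlapped those of the next. No Gdf10 UMI was found in pericytes, with the same limit as for Gfap. Hopx stood at 89.6 and 91.2 CPM in WT and at 94.4 and 100 CPM in Tbx1+/- astroglia (mean 93.8 ± 4.65 CPM), followed by 58.4 ± 12.1 CPM in early rhombic lip cells and 23.8 ± 6.96 CPM in GABA interneuron progenitors, each without overlap with the type before it.

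Ptprz1 stood at 1249 and 1458 CPM in WT and at 1339 and 1569 CPM in Tbx1+/- astroglia (mean 1404 ± 140 CPM). Oligodendrocytes held 1736 ± 159 CPM. The ranges of the 2 types overlapped, although oligodendrocytes were the higher in 4 of 4 libraries. Early rhombic lip cells followed with 535 ± 17.5 CPM, and granule neuron progenitors were lowest at 56.1 ± 13.9 CPM. Astroglia held 58.4% of the Ptprz1 UMIs and the far fewer oligodendrocytes 17.6%.

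Fabp7 was spread over all cell types. It stood at 1314 and 950 CPM in WT and at 1178 and 949 CPM in Tbx1+/- astroglia (mean 1098 ± 180 CPM), above GABA interneuron progenitors (752 ± 200 CPM) in 4 of 4 libraries although the ranges overlapped, and at no less than 243 ± 90.9 CPM in any type. Differentiated granule neurons, the most abundant cells, held 599 ± 235 CPM and 32.4% of all Fabp7 UMIs, more than the 26.0% of astroglia. Astroglia held 38.7% of the UMIs of Slc1a2 and 55.8% of those of Hopx. The ratio of astroglia to 6 summed neuron types was 2.19 ± 0.58 for Fabp7, against 6.36 ± 0.40 for Slc1a2, 8.38 ± 2.27 for Hopx, 13.2 ± 1.57 for Ptprz1, 13.2 ± 2.55 for Gdf10, 20.3 ± 3.35 for Aqp4, 22.6 ± 7.32 for Gfap, 29.1 ± 10.2 for Aldh1l1 and 35.4 ± 9.52 for Slc1a3.

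**Figure D1:**
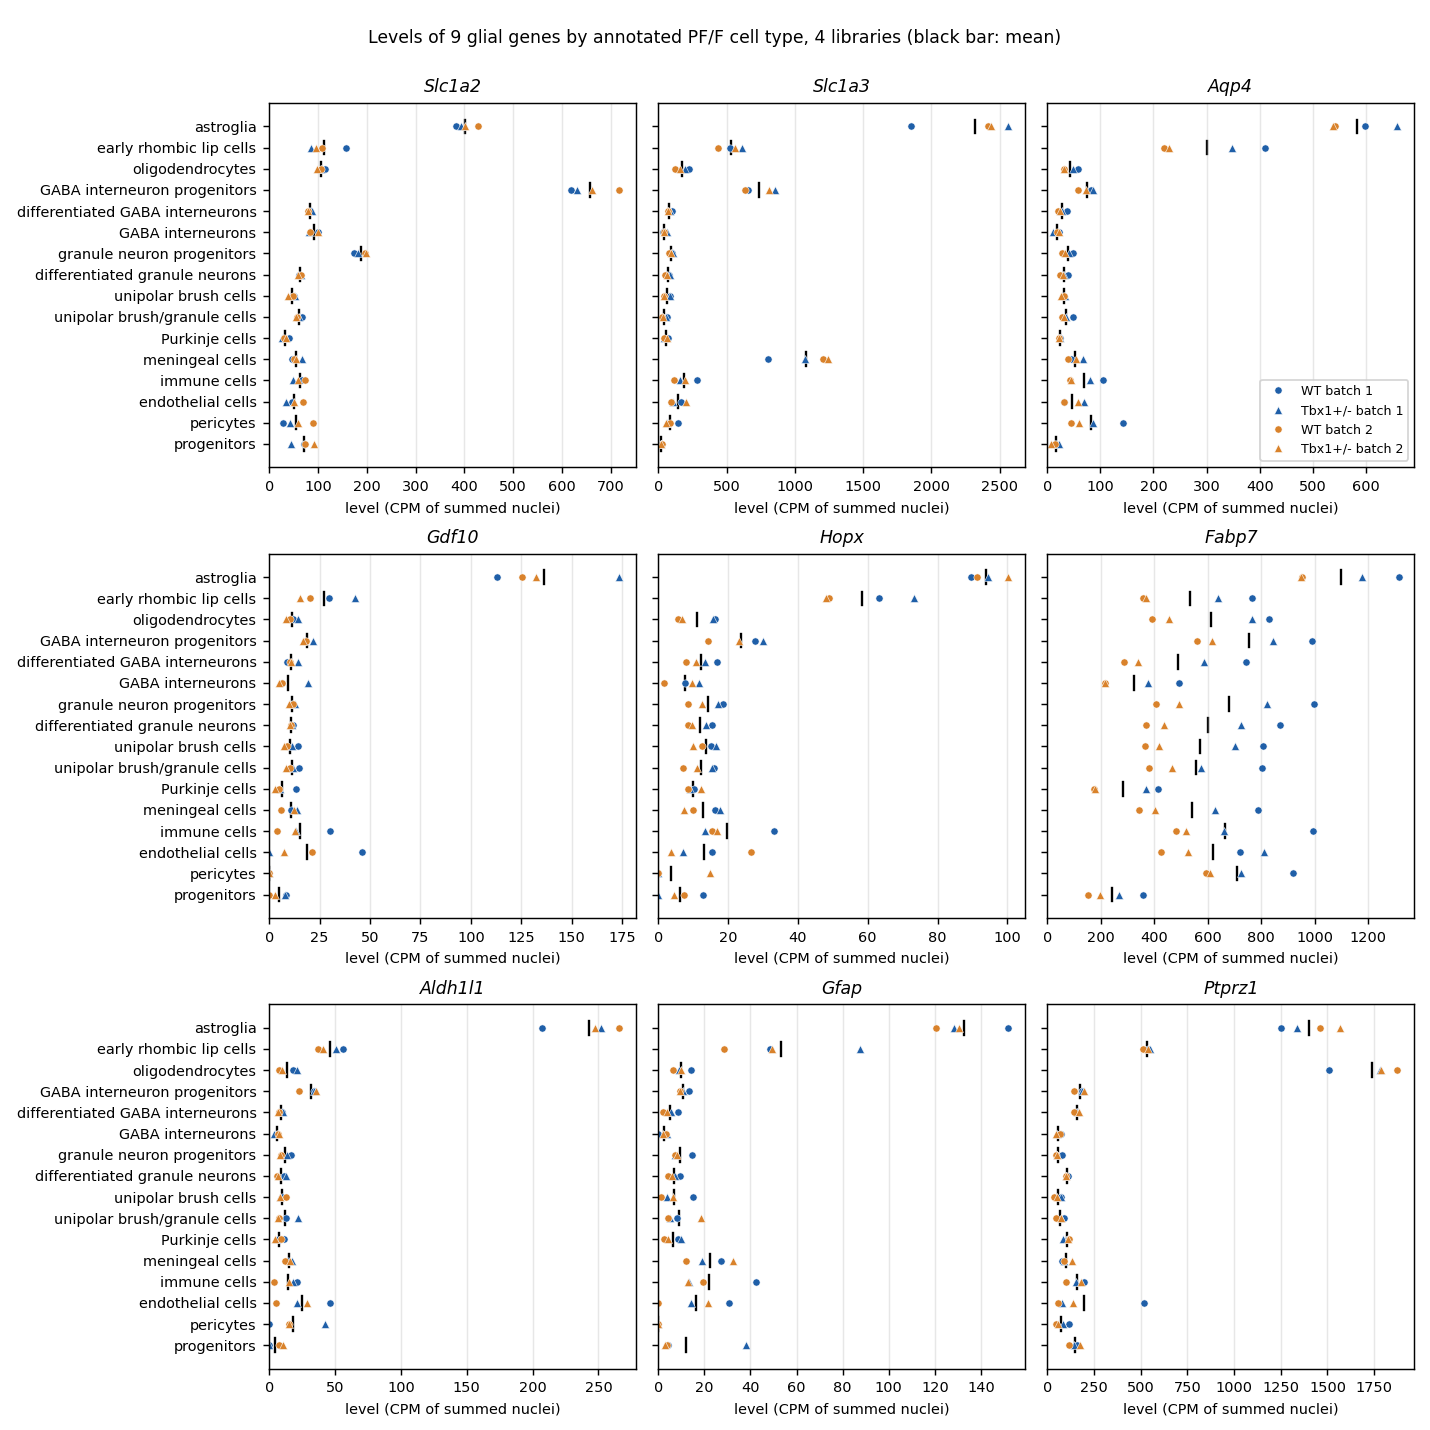
Level of each of the 9 genes in CPM of summed nuclei (x axes, linear, each with its own scale) in the 16 annotated PF/F cell types (rows), with 1 point per library (circles WT, triangles Tbx1+/-, blue batch 1, orange batch 2) and a black bar at the mean of 4. Astroglia lead except for Slc1a2 (GABA interneuron progenitors, 657 CPM) and Ptprz1 (oligodendrocytes, 1736 CPM), and the blue points of Fabp7 lie to the right of the orange ones in 16 of 16 types.

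Fabp7 also differed between the batches. Over all annotated nuclei it stood at 926 and 783 CPM in the WT and Tbx1+/- libraries of batch 1 and at 437 and 491 CPM in those of batch 2. Both libraries of batch 1 lay above both of batch 2 in 16 of 16 cell types, and the ratio of the batch means ran from 1.31 in astroglia to 2.20. In all annotated nuclei 7 of the 9 genes, all but Slc1a3 and Ptprz1, lay above in batch 1 without overlap and 0 lay below, where 31.7% of 20756 genes lay above and 31.6% below. Within astroglia only Aqp4 and Fabp7 lay above in batch 1 and Ptprz1 and Slc1a2 below, where 30.7% of 16138 genes lay above and 24.1% below. Sums over all nuclei cannot tell fewer cells of a type from less RNA per cell. Astroglia made up 16.7% and 14.6% of nuclei in the WT and Tbx1+/- libraries of batch 1, and 13.5% and 14.3% in batch 2. Early rhombic lip cells went the other way, at 1.15% and 1.02% against 1.41% and 1.34%. The part of these shares in the levels over all nuclei was not tested.

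The mix of the 9 genes differed between cell types. Of their summed UMIs in astroglia, Slc1a3 made up 35.9%, Ptprz1 21.9% and Fabp7 17.3%. In differentiated granule neurons Fabp7 made up 66.1% and Slc1a3 7.70%, and in meningeal cells Slc1a3 made up 57.4%. Free RNA from lysed cells gives nuclei UMIs of genes that they do not express, in the same ratio in every type. The authors' correction for it left a median of 0.752 (WT) and 0.758 (Tbx1+/-) of the raw counts in batch 1. In batch 2 it left 0.818 and 0.812. The part of free RNA in the low neuronal levels, in Fabp7 outside astroglia and in the batch difference of Fabp7 was not tested.

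The share of astroglial nuclei with at least 1 UMI was set beside that of differentiated granule neurons after thinning each nucleus to 1000 UMIs, a depth that every annotated nucleus reached. Slc1a3 was found in 80.5% ± 4.18 of thinned astroglial nuclei and in 7.08% of granule neurons, Ptprz1 in 69.2% ± 2.25 and 8.69%, and Aqp4 in 39.2% ± 3.31 and 3.52%. Slc1a2 was found in 32.4% ± 1.18 against 5.96%, and Aldh1l1 in 21.7% ± 1.75 against 1.00%. Gdf10 was found in 12.8% ± 2.80 against 1.40%, Hopx in 9.81% ± 0.82 against 1.18% and Gfap in 9.12% ± 0.84 against 0.781%.

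Fabp7 stood at 66.2% ± 5.89 of thinned astroglial nuclei and still at 46.4% of granule neurons. Before thinning, at a median of 2846 to 3591 UMIs in astroglia and 2572 to 3483 in granule neurons, Slc1a3 was found in 96.5% of astroglial nuclei, Gdf10 in 31.7% and Gfap in 20.2%. Most astroglial nuclei thus gave no UMI of Gdf10 or Gfap at these depths, which does not show that the genes were silent there.

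The astroglial nuclei were next divided by whether they held a UMI of Gdf10, the ligand known from Bergmann glia, or of Gfap, with each nucleus thinned to 1000 UMIs. Gdf10 was found in 217 and 143 WT and 341 and 226 Tbx1+/- nuclei, and Gfap in 210 and 105 WT and 185 and 158 Tbx1+/- nuclei. Few nuclei held both, 9 to 16 per library. Of the nuclei with Gdf10, 4.42% to 6.29% held Gfap, below the 8.81% to 10.8% of the nuclei without it in each of the 4 libraries. A division by detection is not a cell type, the nuclei with and without each gene share libraries, and both divisions use the same nuclei.

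Nuclei with Gdf10 had more Slc1a3 in 4 of 4 libraries, 3577 ± 521 CPM against 2365 ± 295 CPM, with ratios from 1.43 to 1.67. Aldh1l1 was higher too, at 333 ± 83.2 CPM against 253 ± 22.7 CPM (ratios 1.11 to 1.70), as was Fabp7 by a small margin (1.04 to 1.17). Aqp4 was lower in 4 of 4 libraries, 472 ± 53.2 CPM against 621 ± 80.6 CPM (0.596 to 0.947), and so was Gfap, at 65.8 ± 16.5 CPM against 144 ± 18.4 CPM (0.307 to 0.689). Slc1a2, Hopx and Ptprz1 were higher in 1, 3 and 2 of 4 libraries.

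Nuclei with Gfap had more Aqp4 in 4 of 4 libraries, 1116 ± 160 CPM against 550 ± 57.4 CPM, with ratios from 1.83 to 2.28. Slc1a2 was higher as well, at 532 ± 98.4 CPM against 403 ± 13.4 CPM (1.12 to 1.57). Slc1a3 was lower, at 1602 ± 324 CPM against 2611 ± 333 CPM (0.535 to 0.725), and Gdf10, Aldh1l1, Ptprz1 and Fabp7 were lower in 4 of 4 libraries too, with ratios of 0.484 to 0.641, 0.543 to 0.775, 0.638 to 0.895 and 0.848 to 0.970. Hopx was higher in 2 of 4. Among nuclei with at least 2000 detected genes, the directions of Gfap and Aldh1l1 by Gdf10 and of Gdf10, Aldh1l1 and Ptprz1 by Gfap no longer held in every library.

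**Figure D2:**
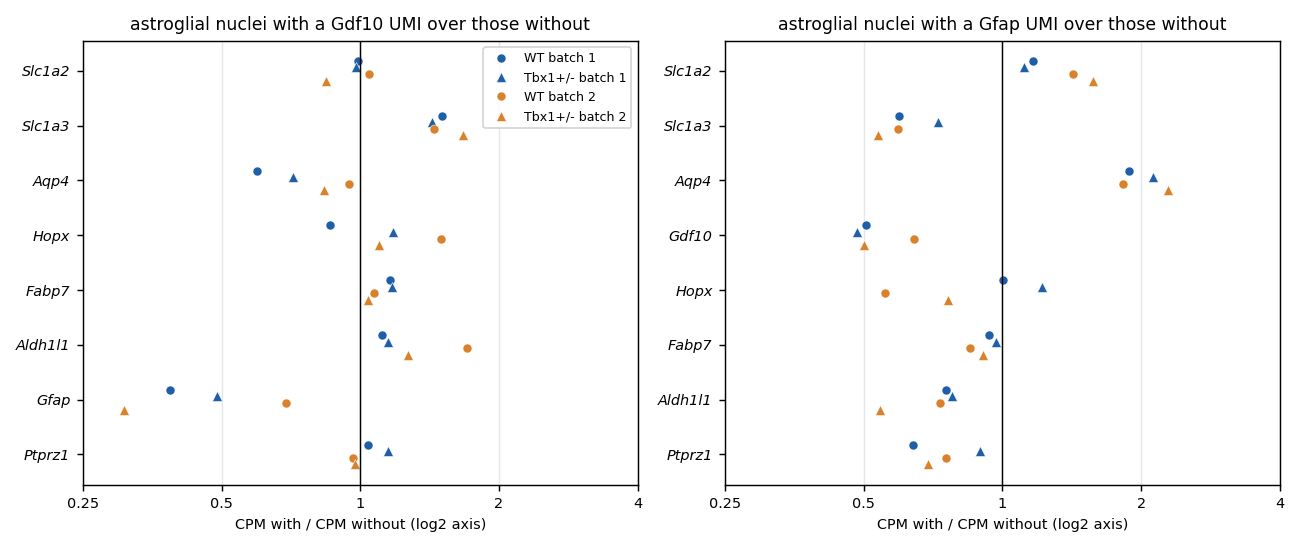
Ratio of each gene's CPM in astroglial nuclei with a UMI to that in nuclei without one (x axes, log2), for Gdf10 (left) and Gfap (right), thinned to 1000 UMIs, with 1 point per library (circles WT, triangles Tbx1+/-, blue batch 1, orange batch 2). Slc1a3 lies at 1.43 to 1.67 on the left and 0.535 to 0.725 on the right, Aqp4 at 0.596 to 0.947 and 1.83 to 2.28.

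To set the 2 kinds of nuclei against each other without shared nuclei, those with Gdf10 and no Gfap (204 and 134 in WT, 325 and 216 in Tbx1+/-) were compared with those with Gfap and no Gdf10 (197 and 96 in WT, 169 and 148 in Tbx1+/-). The nuclei were sorted by their UMIs after thinning and the levels taken from all their UMIs, so a nucleus counted as without a gene may hold a UMI of it that thinning removed. This comparison was added after the values above had been seen. Nuclei with Gfap were the deeper in each library, at medians of 2990 to 3800 against 2506 to 3376 UMIs. Of 8203 genes at 20 CPM or more in astroglia, 20.8% were higher in the Gdf10 nuclei in 4 of 4 libraries and 12.4% lower.

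Of the 7 other genes of the group 5 were higher in the Gdf10 nuclei in 4 of 4 libraries and 2 lower. Slc1a3 stood at 2863 and 3445 CPM in the WT and 3557 and 4003 CPM in the Tbx1+/- libraries, against 1181 and 1516 CPM in WT and 1727 and 1420 CPM in Tbx1+/- in the Gfap nuclei. Every library of the first lay above every library of the second, and the ratio of the means was 2.37. Aldh1l1 (ratio 1.43), Ptprz1 (1.31), Fabp7 (1.16) and Hopx (1.14) were higher by less. Aqp4 was 487 ± 23.3 CPM against 1107 ± 54.8 CPM (ratio 0.440) and Slc1a2 369 ± 28.8 CPM against 467 ± 61.6 CPM (0.790).

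Other genes of the same pathways were taken from 8 lists with 83 genes. Over the 16 cell types, astroglia had the highest level for 6 of 12 genes of glutamate and potassium handling, 5 of 10 of junctions, water and endfeet, 5 of 13 of folate, lipid and metabolic genes, 5 of 18 radial glia and gliogenic factors, 3 of 9 ligands and partners of Ptprz1, 1 of 5 hedgehog genes, 0 of 9 receptors and Smads of Gdf10 and 0 of 7 other members of the Slc1a and Fabp families. The share of all genes with their highest level in astroglia was not taken, so these counts do not show which lists stand out. Of the 71 list genes at 20 CPM or more in astroglia, 27 were higher in the Gdf10 nuclei in 4 of 4 libraries and 17 lower. In the list of glutamate and potassium handling 6 of 11 were higher and 3 lower. Gria1 and Gria4, subunits of AMPA receptors, were higher: Gria1 stood at 2416 ± 263 CPM in the Gdf10 nuclei against 386 ± 138 CPM in the Gfap nuclei (4.50 to 9.12 times by library), and Gria4 at 2115 ± 519 CPM against 830 ± 101 CPM (2.10 to 3.05 times). Glul, glutamine synthetase, was higher as well, at 101 ± 12.8 CPM against 49.6 ± 12.5 CPM, while Slc7a11, the cystine-glutamate exchanger, was lower at 14.6 ± 5.19 CPM against 82.8 ± 36.1 CPM.

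Of the hedgehog genes, 3 of 4 were higher in the Gdf10 nuclei, Ptch1, the hedgehog receptor, at 258 ± 2.87 CPM against 138 ± 13.6 CPM, and the transcription factors Gli2 (180 ± 20.0 against 102 ± 13.7 CPM) and Gli3 (269 ± 28.0 against 230 ± 28.7 CPM). Smo was higher in 2 of 4 libraries. Among radial glia and gliogenic factors 8 of 17 were higher and 1 lower. Nfib, the most abundant, stood at 2281 ± 82.4 CPM against 2180 ± 156 CPM and was higher in 3 of 4 libraries. Zeb2 stood at 956 ± 199 CPM against 622 ± 82.0 CPM and Lfng, a modifier of Notch receptors, at 85.1 ± 6.17 CPM against 24.8 ± 10.6 CPM, while Nfia was slightly lower (1929 ± 183 against 2119 ± 243 CPM). Notch1, Notch2 and the Notch target Hes1 were among the 8, but Hes5, a more abundant Notch target, stood at 152 ± 37.0 CPM against 200 ± 48.3 CPM and was higher in 1 of 4 libraries.

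For the ligands and partners of Ptprz1, 4 of 9 were higher and 4 lower. Tnc, tenascin C, stood at 3226 ± 519 CPM against 1573 ± 287 CPM, and the adhesion molecule Nrcam at 936 ± 152 CPM against 590 ± 70.3 CPM. The brain proteoglycan Ncan, at 59.9 ± 4.10 CPM against 219 ± 21.3 CPM, was lower, and so were Bcan, Tnr and the ligand Ptn. Of the receptors and Smads of the Gdf10 pathway 2 of 6 were higher, Smad3 at 116 ± 21.4 CPM against 30.0 ± 9.25 CPM and Bmpr2 at 156 ± 23.9 CPM against 123 ± 9.53 CPM.

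Of the genes of junctions, water and endfeet 4 of 9 were lower and 1 higher in the Gdf10 nuclei, and of the folate, lipid and metabolic genes 5 of 12 were lower and 1 higher. Slc4a4, the bicarbonate cotransporter, stood at 867 ± 125 CPM against 1289 ± 205 CPM and Gja1, connexin of astrocytic gap junctions, at 36.2 ± 3.87 CPM against 69.7 ± 16.4 CPM. Apoe, the lipid carrier, stood at 1242 ± 556 CPM against 2451 ± 992 CPM, and Clu, another lipoprotein, at 11.7 ± 4.20 CPM against 79.7 ± 16.5 CPM. Of other members of the Slc1a and Fabp families, 2 of 3, Slc1a4 and Fabp3, were higher in the Gdf10 nuclei, while Fabp5, the most abundant, stood at 323 ± 131 CPM against 328 ± 116 CPM and was higher in 3 of 4 libraries. Zeb2, Slc1a4, Fabp3, Glul, Slc7a11, Lfng, Ncan, Smad3, Gja1, Clu, Notch1, Notch2, Hes1, Hes5, Bcan and Tnr were singled out after their values had been seen, and the others are the most abundant of their lists in astroglia.

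Many of the list genes on either side had their highest level in another cell type. Of the 27 genes that were higher in the Gdf10 nuclei 11 were highest in astroglia and 16 elsewhere, and of the 17 that were lower 7 and 10. The share over all genes was not taken here either. On the side of the Gfap nuclei, Slc7a11 stood at 1204 CPM in meningeal cells against 33.6 CPM in astroglia, and Gja1 at 357 CPM in meningeal cells against 49.4 CPM. Tnr stood at 2741 CPM in oligodendrocytes against 29.1 CPM in astroglia, and Bcan at 244 CPM in oligodendrocytes against 93.7 CPM. Clu was highest in early rhombic lip cells (94.9 CPM against 26.0 CPM), Apoe in immune cells (6126 CPM against 1664 CPM) and Ptn in meningeal cells (3152 CPM against 1986 CPM), while Ncan and Slc4a4 were highest in astroglia. On the side of the Gdf10 nuclei, Gria1, Gria4, Tnc, Nrcam, Gli3 and Lfng were highest in astroglia. Zeb2 was highest in immune cells (1538 CPM against 736 CPM in astroglia). Glul stood at 82.3 ± 7.74 CPM in immune cells and 81.6 ± 13.4 CPM in astroglia, which could not be ordered. Ptch1 (326 against 222 CPM) and Gli2 (535 against 168 CPM) were highest in granule neuron progenitors. Bmpr2 (342 against 153 CPM) and Slc1a4 (415 against 112 CPM) were highest in endothelial cells. Notch1 and Hes1 were highest in pericytes, Smad3 and Notch2 in meningeal cells and Fabp3 in differentiated GABA interneurons. The part of RNA or nuclei of other types in these differences was not tested.

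**Figure D3:**
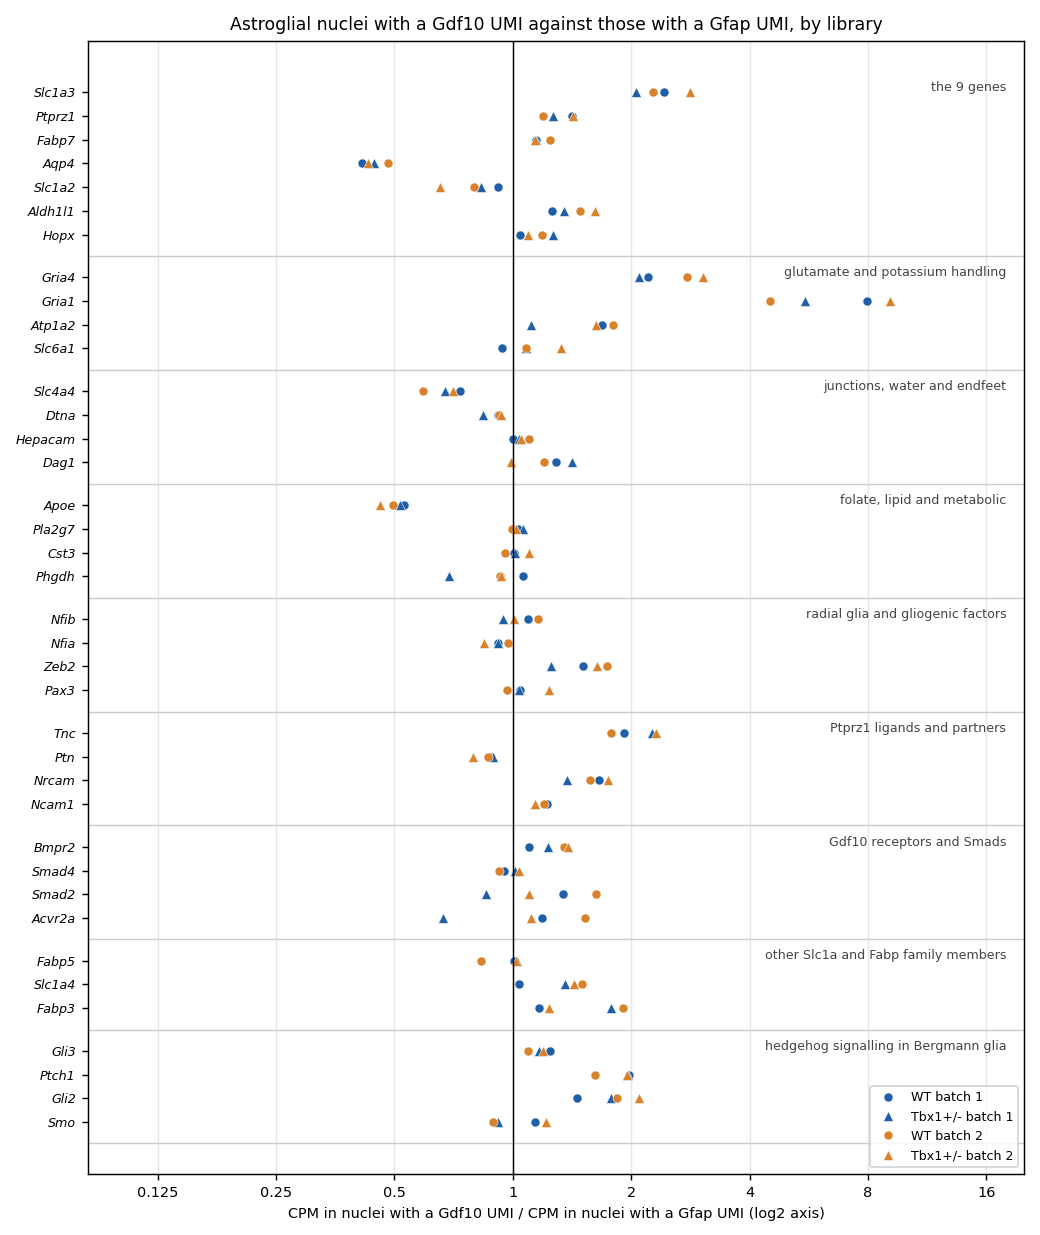
Ratio of CPM in astroglial nuclei with a Gdf10 UMI and no Gfap UMI to CPM in nuclei with Gfap and no Gdf10, sorted after thinning to 1000 UMIs with CPM of all UMIs (x axis, log2) for 7 of the 9 genes and, from each list, the up to 4 most abundant astroglial genes, with 1 point per library (circles WT, triangles Tbx1+/-, blue batch 1, orange batch 2). All points of Gria1 lie between 4.50 and 9.12 and all points of Aqp4 between 0.413 and 0.480.

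The genes whose level over the 16 cell types was most like that of each of the 9 were found by Pearson's r of log2(CPM + 1) among 13099 genes, as a description. All points share the same 4 libraries. Each type counted equally, also the 74 pericyte nuclei, in which no UMI of Gdf10 or Gfap was found, and the weight of that type in the matches was not tested. Aqp4 and Aldh1l1 were each other's closest (r = 0.952), and Ednrb, an endothelin receptor, was among the 3 closest to both (0.945 and 0.943). Fabp7 was closest to Phgdh, the first enzyme of serine synthesis (0.965), then Ckb (0.924). Gfap was closest to the amino acid transporter Slc7a10 (0.939), Slc1a3 to Dkk3 (0.928), and Ptprz1 to Stk32a (0.919) and Gjc3, a connexin of the oligodendrocyte lineage (0.919). Gdf10 was closest to A830029E22Rik (0.953), Hopx to Gm14858 (0.947) and Slc1a2 to Pantr1 (0.896), with the transcription factor gene Pou3f3 (0.874) also among its 3 closest. The other 7 genes had no gene of the group among their 3 closest.

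The genotypes were compared to see whether loss of 1 Tbx1 copy came with a change of these genes in the PF/F. None of the 9 genes passed the test. In astroglia 0 of 16138 genes tested were called (0%) at an adjusted p under 0.05 and a change above 1.5-fold by the quasi-likelihood test of edgeR, and 134 had an unadjusted p under 0.05. DESeq2 called 1 and gave 9 at an unadjusted p under 0.05. With the replicate number as a block edgeR called 3, none of them among the 9, and gave 543 at an unadjusted p under 0.05.

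Gdf10 had the largest estimate in astroglia. Its libraries, at 113 and 125 CPM in WT against 173 and 132 CPM in Tbx1+/-, did not overlap between the genotypes, and the Tbx1+/- library was the higher in both batches. The log2 change was 0.37 (SE 0.18, 95% interval -0.04 to 0.79, edgeR adjusted p = 0.999994). With the block it was 0.37 (SE 0.11, edgeR unadjusted p = 0.0016) at an adjusted p of 0.952. Slc1a3 had a log2 change of 0.24 (SE 0.30, -0.44 to 0.92), or 0.26 (SE 0.14) with the block. Hopx and Ptprz1 had changes of 0.12 each.

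The other 5 genes lay between -0.07 for Fabp7 and 0.10 for Aldh1l1, all at the same adjusted p. Both Tbx1+/- libraries lay above both WT libraries for 3 of the 9 genes (Gdf10, Hopx and Slc1a3) and below for 0, where 8.87% of all 16138 genes lay above and 12.7% below. The median log2 change over the 9 genes was 0.10, beside -0.001 over all genes tested. In the fit without the block the upper ends of the 95% intervals were a 1.89-fold change for Slc1a3 and a 1.73-fold change for Gdf10. Increases up to that size lay within the error of that fit, whose SEs for these 2 genes were larger than those with the block.

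In 3 other cell types that held these genes and in all nuclei together no gene was called by edgeR either. The count was 0 of 9464 in early rhombic lip cells (0%), with 171 at an unadjusted p under 0.05 in edgeR, 0 called and 24 at an unadjusted p under 0.05 in DESeq2 and 11 called with the block. In oligodendrocytes it was 0 of 12354 (0%, 167 unadjusted), with 0 and 8 in DESeq2 and 2 with the block. In GABA interneuron progenitors it was 0 of 12363 (0%, 190 unadjusted), with 0 and 14 in DESeq2 and 1 with the block, and in all annotated nuclei 0 of 20756 (0%, 99 unadjusted), with 0 and 31 in DESeq2 and 0 with the block. The block called none of the 9 genes in any comparison.

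Single estimates were largest in early rhombic lip cells, which had the fewest nuclei (585) of the 4 types tested. The nuclei carried the ependymal and choroid plexus markers given above. Of the choroid plexus markers Ttr, Folr1 and Kl were each higher in both mutant libraries of that type, Folr1 by little in batch 2 (62.2 against 60.7 CPM). The ependymal markers did not follow: their sum stood at 1797 and 2988 CPM in WT and at 2109 and 2489 CPM in Tbx1+/-, higher in batch 1 and lower in batch 2. Among them Tmem212 was lower in the mutant library of both batches (401 against 407 and 403 against 529 CPM). The part of such cells in these estimates was not tested. Gfap stood there at 48.3 and 28.6 CPM in WT and at 87.5 and 49.3 CPM in Tbx1+/-, without overlap and higher in the mutant library of both batches. The log2 change was 0.80 (SE 0.38, -0.04 to 1.65) by edgeR at an adjusted p of 0.999965, and ran from 0.38 to 1.22 without 1 library. With the block it was 0.84 (SE 0.31, edgeR unadjusted p = 0.0065) at an adjusted p of 0.726. In that blocked fit 471 of 9464 genes had an unadjusted p under 0.05. Slc1a2 had a log2 change of -0.53 (SE 0.28, -1.15 to 0.09), from -0.76 to -0.23 without 1 library, or -0.50 (SE 0.23) with the block. Both Tbx1+/- libraries lay above both WT libraries for Gfap and Slc1a3 and below for Slc1a2 there, where 12.7% of 9464 genes lay above and 14.4% below. The genotype by type term, which compares the change with that in astroglia, was 0.84 (SE 0.31) for Gfap and -0.50 (SE 0.24) for Slc1a2, and by edgeR 0 of 16018 genes were called for it (539 at an unadjusted p under 0.05). For oligodendrocytes and GABA interneuron progenitors 0 of 15310 and 0 of 15166 genes were called for that term (430 and 424 unadjusted).

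In GABA interneuron progenitors Slc1a3 stood at 657 and 638 CPM in WT and at 857 and 814 CPM in Tbx1+/-, without overlap. Its log2 change was 0.37 (SE 0.21, -0.11 to 0.85) at an edgeR adjusted p of 0.999661, and ran from 0.33 to 0.40 without 1 library. With the block it was 0.37 (SE 0.11, edgeR unadjusted p = 0.0037) at an adjusted p of 0.998. In that blocked fit 519 of 12363 genes had an unadjusted p under 0.05. Slc1a3 and Ptprz1 lay above in both mutant libraries of that type, where 12.8% of 12363 genes did, and 0 of the 9 genes lay below (12.4% of all genes). In oligodendrocytes 0 of the 9 lay above (10.5% of all genes) and Slc1a2 lay below (13.8%), and in all annotated nuclei Slc1a3 lay above (7.56%) and 0 lay below (10.3%). The summed markers of meningeal cells, the type second in Slc1a3, stood in all annotated nuclei at 29.1 and 34.4 CPM in WT and at 42.9 and 41.0 CPM in Tbx1+/-, and their part in that estimate was not tested.

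The estimates of the 9 genes lay between -0.20 (Aqp4) and 0.15 (Aldh1l1) in oligodendrocytes, between -0.23 (Gfap) and 0.37 (Slc1a3) in GABA interneuron progenitors and between -0.11 (Gfap) and 0.22 (Gdf10) in all annotated nuclei. In the 8 lists 81 of 83 genes were tested in astroglia by edgeR, 0 were called and 0 had an unadjusted p under 0.05, and their medians lay between -0.04 and 0.08 on the log2 scale.

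**Figure D4:**
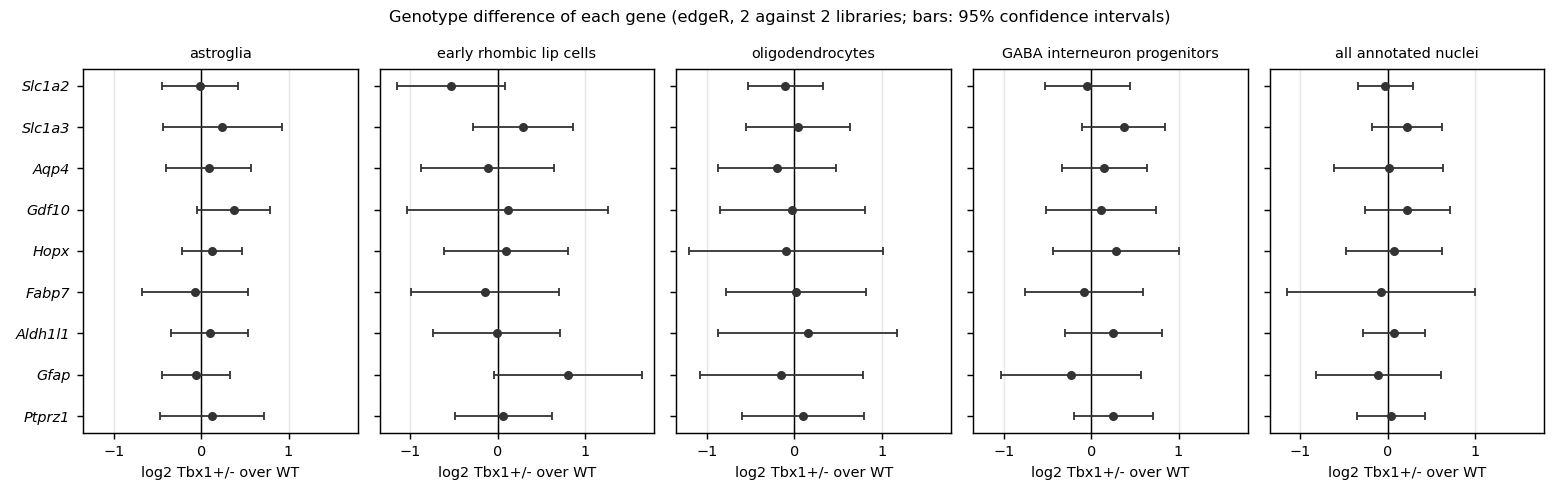
Estimated log2 change of each gene in Tbx1+/- over WT (x axes) in 4 cell types and in all annotated PF/F nuclei, with points for the edgeR estimate from 2 against 2 libraries and bars for its 95% interval. The intervals are from the fit without the replicate block. Every interval includes 0, and the widest, of Gdf10 in early rhombic lip cells, runs from -1.03 to 1.27.

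The 9 genes were also read in the 31076 annotated nuclei of the PTB, in 15 cell types with 4 libraries. These types cover connective tissue, cartilage and bone cells and osteoclasts. Other PTB nuclei, such as the immune cells and neurons that the paper names, had no label here and were not summed. Among the annotated types of either tissue Ptprz1 had its highest level in the PTB. In matured osteoblasts and osteocytes it stood at 3094 and 3946 CPM in WT and 3449 and 3552 CPM in Tbx1+/- (mean 3510 ± 350 CPM), above every PF/F library. Osteoblasts held 273 ± 13.6 CPM and cells labelled hypertrophic chondrocyte/osteoblasts 169 ± 22.7 CPM. No other PTB type came near.

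Both glutamate transporters were found in chondrocyte progenitors (CP). Slc1a3 stood at 1373 and 1426 CPM in WT and 1457 and 1563 CPM in Tbx1+/- in the type CP3 (mean 1455 ± 80.1 CPM), at 1154 ± 173 CPM in CP6 and at 684 ± 92.4 CPM in CP5. Slc1a2 stood at 490 ± 28.5 CPM in CP5, from 450 to 517 CPM by library, at 347 ± 29.0 CPM in CP3 and at 181 ± 20.6 CPM in CP6. The same 3 types led for both genes, but CP5 led for Slc1a2 and CP3 for Slc1a3, without overlap of their libraries in either gene.

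Gdf10 was spread over the PTB, from 65.2 ± 25.3 CPM in CP4 to 13.6 CPM in osteoclasts. Both libraries of batch 1 lay above both of batch 2 in every annotated type but matured chondrocytes, such as CP4 (99.0 and 69.9 against 43.5 and 48.3 CPM). In all annotated PTB nuclei it stood at 47.3 and 34.4 CPM in batch 1 against 18.4 and 22.2 CPM in batch 2. There Fabp7 (47.5 and 29.6 against 17.5 and 28.1 CPM) and Hopx (1.85 and 2.05 against 1.34 and 1.80 CPM) also lay above in batch 1. Slc1a3 lay below (249 and 216 against 260 and 254 CPM). The share of all genes that differed so between batches was not taken in the PTB, and the part of free RNA was not tested. Fabp7 lay between 23.1 and 41.5 CPM by type. Among the annotated types Aqp4 reached at most 6.46 CPM, Gfap 5.38 CPM, Hopx 4.95 CPM and Aldh1l1 8.10 CPM, far under their astroglial levels.

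**Figure D5:**
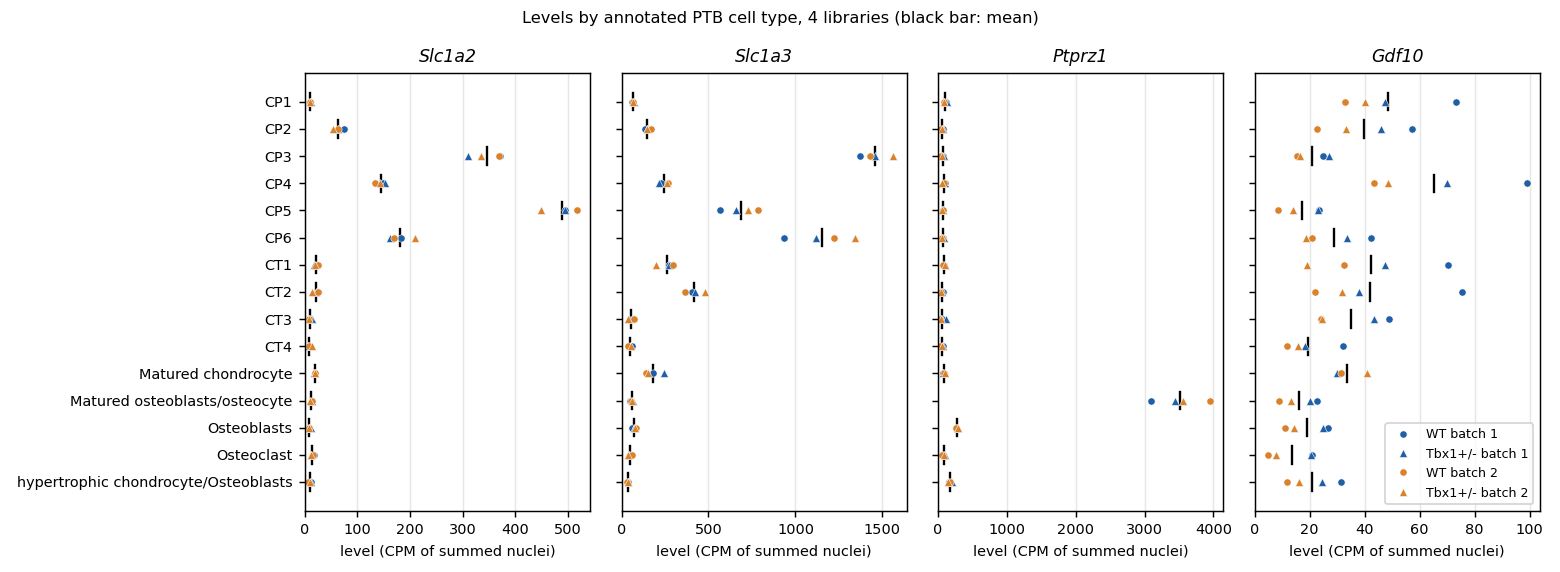
Level of Slc1a2, Slc1a3, Ptprz1 and Gdf10 in CPM of summed nuclei (x axes, linear, each with its own scale) in the 15 annotated PTB cell types (rows; CP chondrocyte progenitors, CT connective tissue), with 1 point per library (circles WT, triangles Tbx1+/-, blue batch 1, orange batch 2) and a black bar at the mean of 4. Ptprz1 stands at 3510 CPM in matured osteoblasts/osteocyte and at no more than 273 CPM elsewhere.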

How the data were processed

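Nuclei of the PF/F and PTB were sequenced with the 10x Chromium 3′ kit, and the authors aligned reads to mm10 with introns counted using Cell Ranger 7.0.0 and deposited raw UMI counts per barcode. The authors dropped nuclei with few genes and outliers, and named clusters by label transfer and manual curation. The deposited PF/F annotation also holds expected counts per nucleus after the authors' SoupX correction for free RNA, at a median of 0.752 to 0.818 of the raw counts, and these served only as that check. The authors describe no doublet removal, and an alternative left out the top 8% of nuclei by UMIs.

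Raw counts were summed per library and annotated type (16 in the PF/F), and CPM was taken of the sum. Genotypes were compared, 2 libraries against 2, with edgeR 4.0.16 (TMM, quasi-likelihood test, Benjamini-Hochberg adjustment, called at an adjusted p under 0.05 and over 1.5-fold), with DESeq2 1.42.0 (R 4.3.3) as alternative. Python 3.11.15 with numpy 2.4.6, scipy 1.17.1 and pandas 2.3.3 did the rest. In simulated counts 200 genes were given a log2 change of 1, with the same dispersion for every gene and no difference between batches. Of these edgeR and DESeq2 found 74.5% and 57% in astroglia, 43.5% and 11% in early rhombic lip cells and 67% and 30% in oligodendrocytes. They found 61.5% and 30.5% in GABA interneuron progenitors and 85.5% and 72.5% in all nuclei. The real libraries also differed between batches, so these shares do not give the power of the real tests. Replicate numbers mark batches of animals processed separately, per the study's methods, and deviations of same-numbered libraries correlated at 0.698 in all nuclei and 0.57 in astroglia, so a fit with the replicate number as a block was run. Shares of nuclei with a UMI used each nucleus thinned to 1000 UMIs at random with a fixed seed.

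The members, lists and tests were chosen with earlier results of these data known. Named were all 9 members and from each list the most abundant astroglial genes, with exceptions stated. The gene most like each member over cell types was named as well (genes at 20 CPM or more in a type of at least 50 nuclei). For some members another of the 3 most like it was named, which was not always the next in order. The count of 3 UMIs set the limit for values of 0. Limits and depths cover counting error only. Tables of the RefSeq promoters matched 8 of the 9 genes, and no sequence is shown for Aqp4.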

Additional observations from a re-analysis of the deposited data

How the results depend on the processing

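None of the 9 genes was called in any of the 5 genotype comparisons under any alternative run, which covered DESeq2, RLE size factors, no filter on low counts, nuclei with at least 2000 detected genes, the top 8% of nuclei by UMIs left out, the replicate block and each library left out in turn. The count of called genes, 0 in each comparison, was 3 in astroglia, 3 in early rhombic lip cells and 1 in oligodendrocytes with no filter on low counts, and 1 in astroglia with DESeq2. With the replicate block it was 3 in astroglia, 11 in early rhombic lip cells, 2 in oligodendrocytes and 1 in GABA interneuron progenitors. Without 1 library it ran from 1 to 38 in astroglia (38 without WT replicate 1), from 0 to 5 in early rhombic lip cells, from 0 to 7 in oligodendrocytes and from 0 to 21 in GABA interneuron progenitors, with the lone library of a genotype assumed to vary like the others, and it was 0 throughout in all annotated nuclei.

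The log2 change of Aldh1l1 turned to -0.019 in astroglia with at least 2000 detected genes and to -0.31 in oligodendrocytes without the top 8% of nuclei. Leaving out 1 library turned signs in astroglia for Slc1a2 (-0.10 to 0.079), Aqp4 (-0.059 to 0.22), Fabp7 (-0.28 to 0.17), Aldh1l1 (-0.082 to 0.30), Gfap (-0.20 to 0.11) and Ptprz1 (-0.0095 to 0.25), in oligodendrocytes for Aqp4 (-0.53 to 0.29) and Aldh1l1 (-0.43 to 0.99), in GABA interneuron progenitors for Gfap (-0.41 to 0.051) and in all annotated nuclei for Gfap (-0.47 to 0.37) and Gdf10 (-0.044 to 0.43). In astroglia Gdf10 ran from 0.17 to 0.55, Slc1a3 from 0.05 to 0.46 and Hopx from 0.07 to 0.17. The cause of these shifts was not tested.

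With at least 2000 detected genes 7 of the 9 astroglial levels fell by more than 1 SD, such as Slc1a3 to 1996 CPM and Fabp7 to 855 CPM. Of 96 ratios between nuclei with and without Gdf10 or Gfap under alternatives chosen after seeing the data, 2 moved by more than 1 SD, Hopx by Gdf10 to 1.54 and Aldh1l1 by Gfap to 0.829, both with at least 2000 detected genes. In those nuclei 5 directions seen in 4 of 4 libraries no longer held in every library: the ratio by Gdf10 ran from 0.233 to 1.10 for Gfap and from 0.794 to 1.66 for Aldh1l1, and that by Gfap from 0.303 to 1.05 for Gdf10, from 0.429 to 1.22 for Aldh1l1 and from 0.656 to 1.12 for Ptprz1. With 2 libraries a genotype and few UMIs of Gfap, Hopx and Gdf10 outside astroglia, the intervals there are wide.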

Other observations

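Barcodes that the annotation left out held all 9 genes, at levels under those of astroglia. Slc1a3 stood there at 276 ± 32.9 CPM (SD, n = 4 libraries), Ptprz1 at 236 ± 22.7 CPM, Slc1a2 at 118 ± 8.82 CPM and Aqp4 at 85.3 ± 18.2 CPM. Fabp7 stood at 667 ± 278 CPM, and Gdf10, Gfap and Aldh1l1 at 18.1 ± 4.79, 21.4 ± 2.05 and 27.4 ± 6.15 CPM.

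The relatives of the glutamate transporters and of Fabp7 had their highest levels elsewhere. Slc1a1, the neuronal glutamate transporter, stood at 220 CPM in oligodendrocytes against 10.8 CPM in astroglia, and Slc1a6, the transporter of Purkinje cells, at 374 CPM in Purkinje cells against 13.4 CPM in astroglia. Slc1a4, a carrier of neutral amino acids, stood at 415 CPM in endothelial cells against 112 CPM in astroglia, and Slc1a5 at 44.3 CPM in meningeal cells against 5.25 CPM. Fabp5 came closest to astroglia, at 289 CPM there and 370 CPM in granule neuron progenitors. Values are means of 4 libraries and a description with no test.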
